A study of Mus musculus with 37 samples.

Results

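The genes described here are 53 members of enzyme families known for detoxifying drugs, dietary chemicals and products of oxidation. They are part of 19938 genes measured in mouse colon, and not every member has that role. They were chosen by name: transcript clusters annotated to exactly 1 gene symbol that belongs to the glutathione S-transferases (Gst, 19 genes), the microsomal glutathione S-transferases (Mgst, 3), the UDP-glucuronosyltransferases (Ugt, 11), the cytosolic sulfotransferases (Sult, 16) or the epoxide hydrolases (Ephx, 4). Where a gene had more than 1 such cluster, which was the case for Gstm3 alone, the cluster with the highest mean over 37 arrays stood for it. Probe positions were not checked, so the cluster used for Gstm3 may not read that gene itself. All 53 symbols are in the RefSeq gene table of build GRCm38.p6, which places the 7 mu class genes (Gstm1 to Gstm7) and Mgst2 on chromosome 3, the Ugt2 genes on chromosome 5 and Gstt1 to Gstt4 on chromosome 10. A cluster annotated to several near-identical genes was outside the rule, so Gsta1, Gsta2, Gstp2 and the Ugt1a genes are not among the 53.

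Phase II enzymes make reactive or fat-soluble compounds easier to excrete. Glutathione S-transferases couple electrophiles to glutathione, UDP-glucuronosyltransferases add glucuronic acid, sulfotransferases add sulfate from the activated donor PAPS, and epoxide hydrolases open epoxides with water. In the gut many of them are made by the absorptive epithelium, which meets food chemicals and bacterial products first, and several are inducible through the transcription factor NRF2, which binds antioxidant response elements, or through the aryl hydrocarbon receptor, which binds xenobiotic response elements.

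Colon RNA of 37 mice, 1 array per animal, was hybridized to whole-transcript Affymetrix arrays (Mouse Gene 1.0 ST). Wild-type C57BL/6J mice and mice of the Timp1 knock-out line B6.129S4-Timp1tm1Pds/J, which lack a tissue inhibitor of metalloproteinases, received dextran sulfate sodium (DSS), a polysaccharide that injures the colonic epithelium when given by mouth, in an acute or a chronic regimen, or served as controls of that regimen. Sex, age, dose and duration are not in the labels, and the strain field reads C57BL/6J for both genotypes. There were 3 wild-type acute controls, 5 wild-type mice with acute DSS, 3 knock-out acute controls and 6 knock-out mice with acute DSS, and 5 mice in each of the wild-type chronic control, wild-type chronic DSS, knock-out chronic control and knock-out chronic DSS groups. Values are log2 signals as the authors deposited them, and a difference of 1 is a change of 2-fold in signal.

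The Timp1 signal was 9.47 to 12.19 in wild-type acute DSS and 7.10 to 8.68 in knock-out acute DSS, a difference of -3.14 ± 0.33 (SE, limma adjusted p = 1.34e-07), although which part of the gene its cluster reads is not given. The titles carry 4 series of animal numbers. All wild-type acute arrays and knock-out acute DSS replicates 1 to 3 belong to one, and all knock-out acute controls and knock-out acute DSS replicates 4 to 6 to another, so that genotype and series of animal numbers cannot be told apart between the acute controls. The same holds under chronic DSS, where the wild-type arrays all belong to the third series and the knock-out arrays all to the fourth. Wild-type chronic control replicates 1 to 3 belong to the third series and the others to the fourth. No series holds both acute and chronic arrays, so phase and series cannot be told apart. Signals of Y-linked genes were present in 2 arrays, knock-out acute control replicate 2 and knock-out acute DSS replicate 4. Wild-type acute DSS replicates 1 and 3 stood apart from the rest: the mean log2 signal of 9 epithelial marker genes was 11.92 and 11.16 there, against 12.55 to 12.59 in the other 3 arrays of the group and 12.62 to 12.65 in the wild-type acute controls. Replicate 3 also had the lowest mean correlation with its own group, 0.951. Counts and the values of some genes are given with and without these 2 arrays. Where no second value is given, a wild-type acute DSS result includes both arrays, and its dependence on them is not shown.

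5 of the 53 genes, Gstm2, Gstm4, Gstm7, Gstt1 and Ephx1, were lower with DSS in at least 3 of the 4 comparisons of DSS with control. The share of all genes that were lower that often is not given. The promoters of 4 of the 5 are printed because these genes carry most of what follows. Gstm2 and Gstm7 encode mu class enzymes, Gstt1 a theta class enzyme that handles small halogenated compounds, and Ephx1 the microsomal epoxide hydrolase. The sequences are RefSeq windows of build GRCm38.p6, from 250 bases before to 50 bases after a gene start, all on the minus strand: chr3:107986371-107986670 for Gstm2, chr3:107931565-107931864 for Gstm7, chr10:75797682-75797981 for Gstt1 and chr1:181017520-181017819 for Ephx1. Of the 2 windows listed for Gstm7, the one shown was chosen because it holds a match. Capitals mark a match to the antioxidant response element core TGACNNNGC.
Gstm2: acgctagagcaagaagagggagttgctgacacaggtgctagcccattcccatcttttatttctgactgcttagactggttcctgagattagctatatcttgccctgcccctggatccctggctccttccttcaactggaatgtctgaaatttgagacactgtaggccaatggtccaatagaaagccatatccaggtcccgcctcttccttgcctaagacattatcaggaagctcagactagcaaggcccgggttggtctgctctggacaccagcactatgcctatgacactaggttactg
Gstm7: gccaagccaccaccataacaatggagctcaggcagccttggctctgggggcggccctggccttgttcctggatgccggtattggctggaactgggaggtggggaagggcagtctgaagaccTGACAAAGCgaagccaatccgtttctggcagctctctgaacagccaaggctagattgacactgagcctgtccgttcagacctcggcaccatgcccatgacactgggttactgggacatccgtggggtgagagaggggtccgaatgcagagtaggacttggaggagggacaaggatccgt
Gstt1: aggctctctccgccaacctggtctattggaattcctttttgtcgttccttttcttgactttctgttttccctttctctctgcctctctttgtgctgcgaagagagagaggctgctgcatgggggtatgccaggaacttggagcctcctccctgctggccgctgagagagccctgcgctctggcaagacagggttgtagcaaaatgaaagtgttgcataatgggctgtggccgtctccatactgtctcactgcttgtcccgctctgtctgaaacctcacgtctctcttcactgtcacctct
Ephx1: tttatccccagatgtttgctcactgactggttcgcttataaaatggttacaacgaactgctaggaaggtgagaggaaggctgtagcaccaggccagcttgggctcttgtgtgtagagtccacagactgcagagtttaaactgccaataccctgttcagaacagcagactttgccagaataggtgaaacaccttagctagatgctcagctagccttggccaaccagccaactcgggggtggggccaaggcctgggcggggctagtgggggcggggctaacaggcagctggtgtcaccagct
Both strands were searched for TGACNNNGC and for the xenobiotic response element core GCGTG, and the GC that ends the first core can also begin the second. The Gstm7 window holds the antioxidant response element match TGACAAAGC, which starts at base 122 of the window, and the other 3 printed windows hold neither motif. Of the 53 genes 48 had a listed window, 61 windows in all. The antioxidant response element core was in 4 of these (6.6 percent; Gsta3, Gstm5, Gstm7 and Mgst1), against 12.4 percent of 32851 windows of all genes. The xenobiotic response element core was in 12 (19.7 percent), against 32.4 percent of all windows. A match is a run of letters only, and these counts describe the windows.

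In wild-type colon, most of the enzymes with a signal above that of the median gene were lower with acute DSS. Of the 53 genes 28 fell and 3 rose (limma, adjusted p under 0.05), where 21.8 percent of all genes fell and 19.4 percent rose. The median difference was -0.40 over the 53 genes and 0.01 over all genes. Of the 27 members above the median gene 24 fell, and of the 26 below it 4 fell and 3 rose. The shares of all genes on each side of the median that fell or rose are not given. Signals of DSS and control arrays did not overlap for 24 genes that were lower, against 21.4 percent of all genes, and for 3 that were higher, against 17.7 percent of all genes. In bulk colon, fewer cells of a type and less RNA per cell cannot be told apart.

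**Figure D1:**
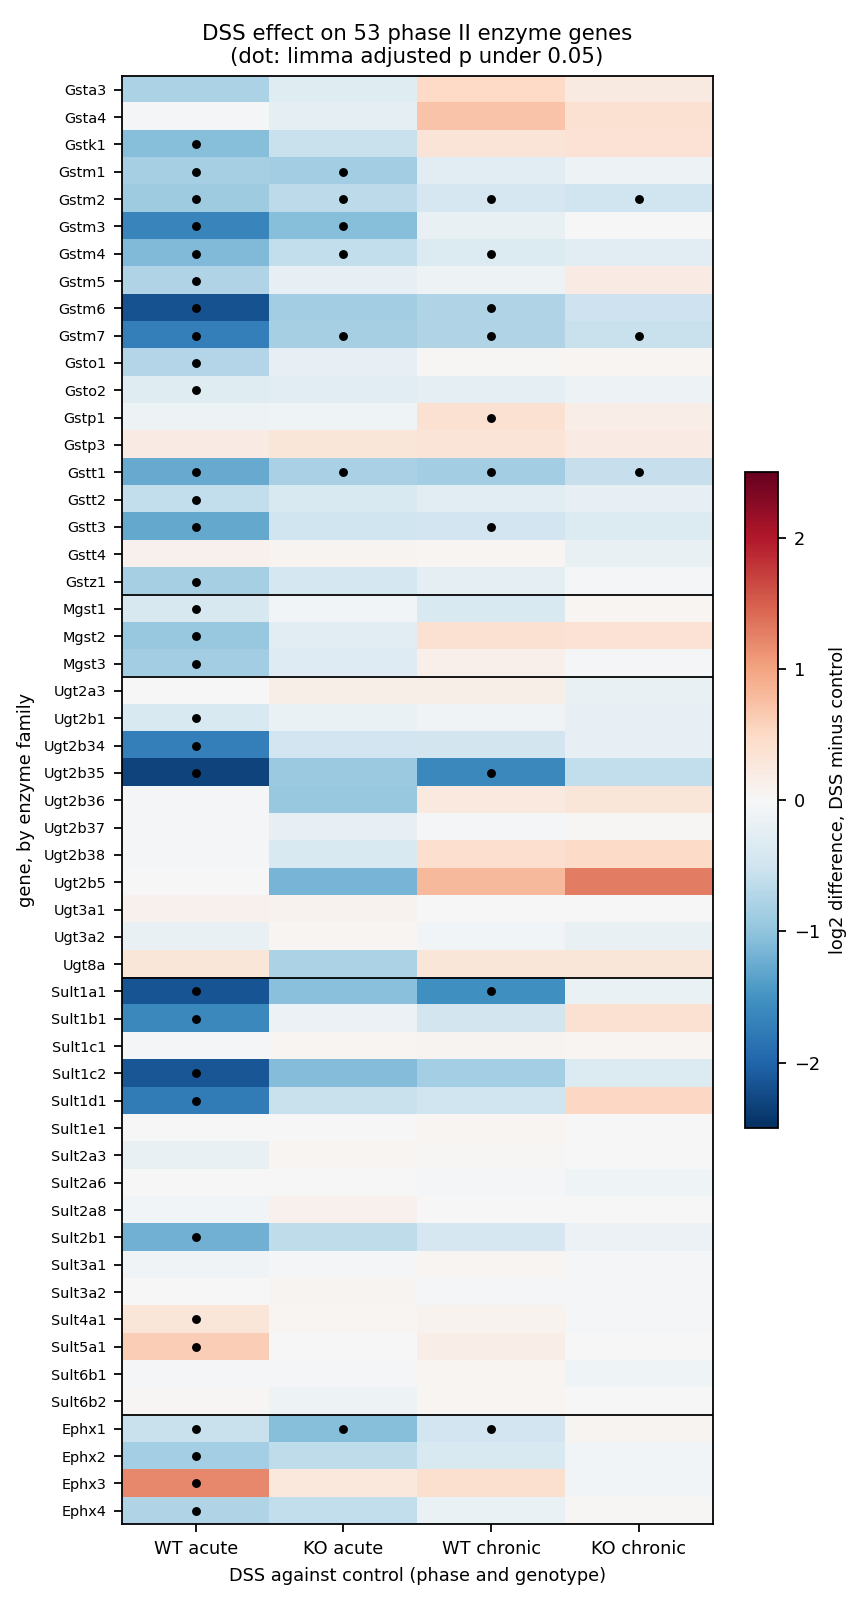
Log2 difference between DSS and control (colour) for each of the 53 genes (vertical axis, black lines between families) in the 4 comparisons of genotype and phase (horizontal axis), with a dot where the limma adjusted p is under 0.05. Of the 53 genes 28 fell in wild-type acute, 7 in knock-out acute, 9 in wild-type chronic and 3 in knock-out chronic colon, and only Gstm2, Gstm7 and Gstt1 carry a dot in all 4 columns.

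Genes of the Gst family made up 14 of the 28 that fell. These 14 of 19 were the members that passed, all lower, with a family median of -0.82, and all 7 mu class genes were among them, with a median of -1.11. Gstt1 read 9.55, 9.58 and 9.78 in the wild-type acute controls and 8.50, 8.22, 8.34, 8.27 and 8.52 in the 5 DSS arrays. All DSS arrays lay more than a log2 unit below the lowest control, and the 2 arrays poor in epithelial markers were no lower than the others. The fitted difference was -1.27 ± 0.12 (SE), a 2.40-fold fall (limma adjusted p = 7.47e-09). Gstm2 read 10.35, 10.32 and 10.38 in the controls and 9.41, 9.41, 9.32, 9.61 and 9.52 with DSS, a fall of 1.86-fold (limma adjusted p = 2.68e-07). The 5 DSS arrays were again close to each other and apart from the controls.

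Gstm7 read 9.96, 9.99 and 10.28 in the wild-type acute controls and 8.16, 8.31, 7.85, 8.90 and 8.63 with DSS, and fell by 3.27-fold (-1.71 ± 0.18, limma adjusted p = 3.05e-08). The mu class gene Gstm6 had the largest fall of the family, from 9.23, 9.20 and 9.30 to 6.44, 7.21, 6.29, 7.75 and 7.66 (4.51-fold, limma adjusted p = 3.54e-07). For both genes replicates 1 and 3 were among the lower DSS arrays, and every DSS array lay below every control. Gstm3 (-1.66 ± 0.27) and Gstm4 (-1.11 ± 0.13) fell too, as did Gstm1 (-0.82 ± 0.19) and Gstm5 (-0.75). Probes of mu class genes can read each other's transcripts, so the separate size of each fall is uncertain.

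Outside the mu class the falls included Gstt3 (-1.28 ± 0.18), Gstk1 (-1.06 ± 0.29), a kappa class enzyme of mitochondria and peroxisomes, Gstz1 (-0.82), which isomerizes maleylacetoacetate in tyrosine breakdown, and Gsto1 (-0.73), an omega class enzyme with thiol transferase activity. Gstp1, the pi class enzyme, did not pass, at -0.13 (limma adjusted p = 0.4775). The alpha class gene Gsta3 also did not pass, at -0.79 (limma adjusted p = 0.0770), nor did Gsta4, which detoxifies lipid peroxidation products, at -0.05 (limma adjusted p = 0.9141). All 3 membrane-bound Mgst genes fell: Mgst2, which can make leukotriene C4, by 0.96 on the log2 scale, Mgst3 by 0.87 and Mgst1 by 0.40.

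The sulfotransferases and glucuronosyltransferases held some of the largest falls beside many genes that did not pass. Of 16 Sult genes 5 fell and 2 rose (median -0.06), and of 11 Ugt genes 3 fell (median -0.03). Sult1a1, which sulfates phenols, read 11.17, 11.07 and 11.12 in the wild-type acute controls and 8.28, 9.53, 7.20, 10.14 and 9.68 with DSS, a 4.44-fold fall (-2.15 ± 0.49, limma adjusted p = 7.26e-04). Sult1c2 fell to a like extent (-2.14 ± 0.43), and Sult1b1, which acts on phenols and thyroid hormones, fell by 1.61 ± 0.42 on the log2 scale. Sult2b1, which sulfates cholesterol and other hydroxysteroids, fell by 1.21 ± 0.23. Ugt2b35 read 8.47, 8.23 and 8.58 in controls and 5.56, 6.59, 5.10, 6.88 and 6.42 with DSS, the largest fall of the 53 genes in this comparison (4.98-fold, limma adjusted p = 1.25e-06). Ugt2b34 read 12.43, 12.40 and 12.41 in controls and 10.00, 11.52, 8.34, 11.86 and 11.84 with DSS (3.25-fold, limma adjusted p = 0.0016). In each of these genes replicates 1 and 3 were the lowest DSS arrays, and no DSS array reached the lowest control.

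Sult1d1, a sulfotransferase of catecholamines, showed a different picture. It read 11.58, 11.36 and 11.55 in wild-type acute controls and 8.35, 11.75, 6.21, 11.26 and 11.20 with DSS, so replicates 1 and 3 were far below and the other 3 arrays were at control level. The fall of 3.34-fold (limma adjusted p = 0.0358) was -0.09 without those 2 arrays (limma adjusted p = 0.8400). It no longer passed without replicate 1 (-1.39), without replicate 3 (-0.86) or without any 1 of the 3 controls.

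The 4 epoxide hydrolases did not move together. Ephx1 read 9.28, 9.44 and 9.41 in the wild-type acute controls and 9.09, 8.56, 8.47, 8.94 and 9.0 with DSS, below every control in all 5 arrays (-0.57 ± 0.15, limma adjusted p = 0.0025). Ephx2, the soluble enzyme that hydrolyses fatty acid epoxides, fell by 0.84 ± 0.27 and Ephx4 by 0.76 on the log2 scale. Ephx3, an enzyme related to Ephx4, rose: it read 6.58, 6.55 and 6.60 in controls and 8.60, 7.07, 8.43, 7.14 and 7.63 with DSS, highest in replicates 1 and 3 (1.20 ± 0.24, 2.29-fold, limma adjusted p = 2.23e-04). Sult5a1 rose from 6.65, 6.53 and 6.27 to 7.03, 7.22, 7.22, 7.00 and 7.02, with no overlap and little spread between DSS arrays (0.62 ± 0.09, limma adjusted p = 4.76e-06). Sult4a1, known mainly from brain, rose by 0.30 ± 0.12 (limma adjusted p = 0.0395). That call did not hold without replicate 1 or 2 of the DSS arrays or without any 1 of the 3 controls (0.23 to 0.33).

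Cell type markers moved in the same arrays. Of 9 epithelial markers 7 were lower in wild-type acute colon, and of 8 markers of mature colonocytes 5 were lower, with a mean log2 signal of 12.64 to 12.75 in controls and 10.57, 12.13, 9.03, 11.95 and 12.03 with DSS. The 6 goblet cell markers averaged 12.63 to 12.82 in controls and 11.47, 12.28, 10.04, 12.51 and 12.25 with DSS. All 6 neutrophil markers were higher (6.00 to 6.06 in controls, 8.44 to 11.05 with DSS). By mean signal all 5 DSS arrays lay apart from the controls in each of these lists, as they did in Gstt1 and Gstm2. Macrophage, endothelial, enteric glia, hepatocyte and pancreatic acinar markers were apart as well. Smooth muscle, adipocyte and small intestine enterocyte markers overlapped. Crypt base markers, 4 of 5 lower, were also apart, at 9.37 to 9.42 in controls and 8.00 to 8.54 with DSS. Fibroblast markers, 5 of 6 higher, averaged 10.55 to 10.73 and 11.30 to 12.31, again apart. The part of these changes in the enzyme results was not tested as such, but the comparison was repeated without replicates 1 and 3. There 21 of the 53 genes fell and 2 rose, where 16.6 percent of all genes fell and 13.1 percent rose, and the median difference was -0.21.

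Without those 2 arrays 7 of 7 mu class genes were lower, with a median of -0.94, and 12 of the 19 Gst genes were lower. Cell type markers still moved there: 4 of 5 crypt base markers were lower (median -1.02), and 4 of 6 fibroblast markers (median 1.01) and 6 of 6 neutrophil markers (median 2.95) were higher. Of 8 mature colonocyte markers 2 were lower and 1 higher (median -0.46), and of 6 goblet cell markers 2 were lower and 0 higher (median -0.16). Of the 9 epithelial markers 1 was lower and 1 higher. The 2 arrays had stood apart by the mean of these 9 markers, so leaving them out in part fixes that count. Gstt1 (-1.30 ± 0.13), Gstm2 (-0.84 ± 0.12) and Gstm7 (-1.46 ± 0.18) were about as low as with those 2 arrays. Ugt2b35 was at -1.79 ± 0.28 and Sult1a1 at -1.34 ± 0.43 (limma adjusted p = 0.0206). Ugt2b34 was at -0.68 ± 0.17 and Sult1b1 at -0.53 ± 0.15, less than in all 5 arrays. None of the 3 Mgst genes passed there. Ephx3 (0.70) and Sult5a1 (0.60) still passed, and Sult4a1 did not.

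**Figure D2:**
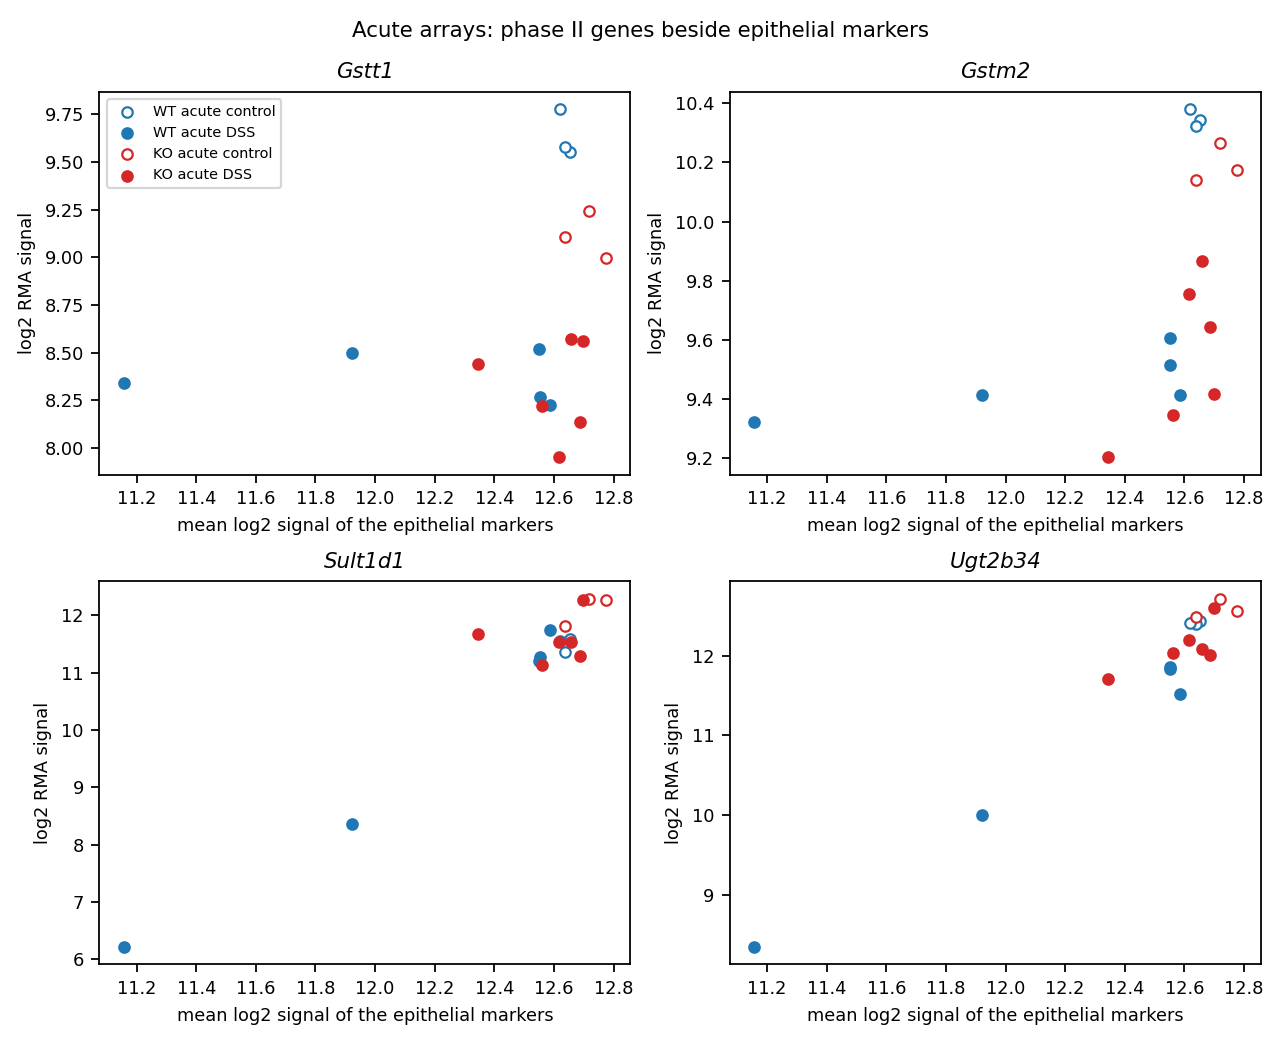
Log2 signal of Gstt1, Gstm2, Sult1d1 and Ugt2b34 (vertical axes) against the mean log2 signal of 9 epithelial markers (horizontal axes) in the acute arrays, 1 point per array, open for controls and filled for DSS. The 2 wild-type DSS arrays at 11.16 and 11.92 on the horizontal axis are the lowest of the acute arrays in Sult1d1 and Ugt2b34, while in Gstt1 and Gstm2 they lie within the range of the other acute DSS arrays.

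In knock-out colon, acute DSS lowered a short list of the same enzymes. Of the 53 genes 7 fell and 0 rose (limma, 20 genes at an unadjusted p under 0.05), where 1.12 percent of all genes passed, 0.853 percent lower and 0.266 percent higher. The median difference was -0.27 over the 53 genes and 0.00 over all genes, and 41 of the 53 differences were negative. The 7 genes were Gstm1, Gstm2, Gstm3, Gstm4, Gstm7, Gstt1 and Ephx1, all of which also fell in wild-type acute colon. No Sult, Ugt or Mgst gene passed. Without overlap 13 genes were lower, where 3.68 percent of all genes were, and 0 were higher, where 2.79 percent of all genes were.

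Ephx1 had the smallest p-value of the 7. It read 9.23, 9.23 and 9.32 in the knock-out acute controls and, over 6 DSS arrays, 7.93 at the lowest, 8.23 at the median and 8.53 at the highest. The groups were far apart, and the fall was 2.09-fold (-1.06 ± 0.14, limma adjusted p = 2.68e-04). Gstt1 read 9.0, 9.24 and 9.11 in controls and 7.95, 8.33 and 8.57 (lowest, median and highest) with DSS, a fall of 0.80 ± 0.11 on the log2 scale (limma adjusted p = 4.29e-04). Gstm2 went from 10.18, 10.27 and 10.14 to 9.20, 9.53 and 9.87 (-0.66 ± 0.10, limma adjusted p = 0.0019), and Gstm7 from 9.51, 9.70 and 9.75 to 8.22, 8.96 and 9.22 (-0.84 ± 0.17, limma adjusted p = 0.0125). In none of these 4 genes did a DSS array reach the lowest control. Gstm3 (-1.07 ± 0.26), Gstm1 (-0.87 ± 0.18) and Gstm4 (-0.62 ± 0.13) completed the list, and the mu class median was -0.84.

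Several genes with large falls in wild type had negative differences that did not pass in knock-out colon: Sult1c2 (-1.09), Sult1a1 (-1.05), Ugt2b35 (-0.93) and Gstm6 (-0.88), with limma adjusted p from 0.0777 to 0.2615. The 9 epithelial markers averaged 12.64 to 12.78 in knock-out acute controls and 12.34 to 12.70 with DSS, and 0 of 9 passed. Mature colonocyte markers averaged 12.50 to 12.82 in controls and 11.45 to 12.45 with DSS, without overlap, and 1 of 8 passed, Slc37a2 (-2.27 ± 0.58, limma adjusted p = 0.0447). Crypt base markers were also without overlap, at 9.06 to 9.33 and 8.42 to 9.01, and 0 of 5 passed (limma, 2 at an unadjusted p under 0.05). Neutrophil markers averaged 6.24 to 9.14 with DSS, and 1 of 6 passed. The part of these markers in the enzyme values was not tested. The count of 7 fell to 3 without any 1 of the 3 controls and without the 2 arrays with Y-linked signal. With the series of animal numbers as a covariate Ephx1, Gstm2 and Gstt1 were the 3 that passed, and in a fit to the knock-out acute arrays alone 0 of the 53 genes did (21 at an unadjusted p under 0.05).

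Enzyme levels under acute DSS were also compared directly between the genotypes. In knock-out DSS colon 12 of the 53 genes were higher and 3 lower than in wild-type DSS colon, where 30.9 percent of all genes differed, 15.8 percent higher and 15.2 percent lower. Sult1d1 was 11.12 at the lowest, 11.54 at the median and 12.26 at the highest in knock-out DSS arrays, against the wild-type values from 6.21 to 11.75 given above (1.82 ± 0.55, limma adjusted p = 0.0119). Sult1a1 differed by 1.43 ± 0.40, Ugt2b34 by 1.39 ± 0.35, Ugt2b35 by 1.30 ± 0.26, Sult1b1 by 1.23 ± 0.35 and Mgst2 by 1.06 ± 0.30. No higher gene was free of overlap between the genotypes, where 2.96 percent of all genes were.

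Most of these higher levels rested on wild-type DSS replicates 1 and 3. Without replicate 1 the count over the 53 genes was 9, without replicate 3 it was 7, and without both it was 3. The shares of all genes that passed in these repeats are not given, so the counts cannot be read against them. Without both, Sult1d1 differed by 0.17, Sult1b1 by 0.15, Mgst2 by 0.21, Ugt2b34 by 0.37 and Sult1a1 by 0.61, and none of these passed (limma adjusted p from 0.0974 to 0.7307). Ugt2b35 was the exception and still passed, at 0.78 ± 0.24 (limma adjusted p = 0.0322). In the comparison with all arrays 4 of 9 epithelial, 4 of 6 goblet cell and 4 of 5 crypt base markers were higher in knock-out DSS colon. Lower there were 6 of 6 fibroblast markers (median -1.17), 4 of 4 endothelial, 5 of 6 neutrophil and 4 of 5 macrophage markers. The part of these shifts in the 12 higher and 3 lower enzyme genes was not tested.

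The 3 lower genes were Ephx1, Sult5a1 and Ephx3, of which the first 2 also passed without those replicates (-0.63 and -0.44). Ephx1 was 7.93 to 8.53 in knock-out DSS arrays and 8.47 to 9.09 in wild-type DSS arrays, a difference of -0.61 ± 0.12 (limma adjusted p = 2.75e-04). Sult5a1 was 6.46 at the lowest, 6.65 at the median and 6.81 at the highest in knock-out DSS colon, below all 5 wild-type DSS arrays (-0.45 ± 0.08, limma adjusted p = 4.11e-05), and was the 1 member lower without overlap, where 3.04 percent of all genes were. Ephx3 was 6.30 to 7.42 in knock-out DSS colon (-0.97 ± 0.20, limma adjusted p = 4.62e-04), and this difference did not pass without replicates 1 and 3 (-0.47). Ephx1 and Sult5a1 were also the 2 genes that passed among the arrays of 1 series of animal numbers, which holds 5 wild-type and 3 knock-out DSS arrays.

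**Figure D3:**
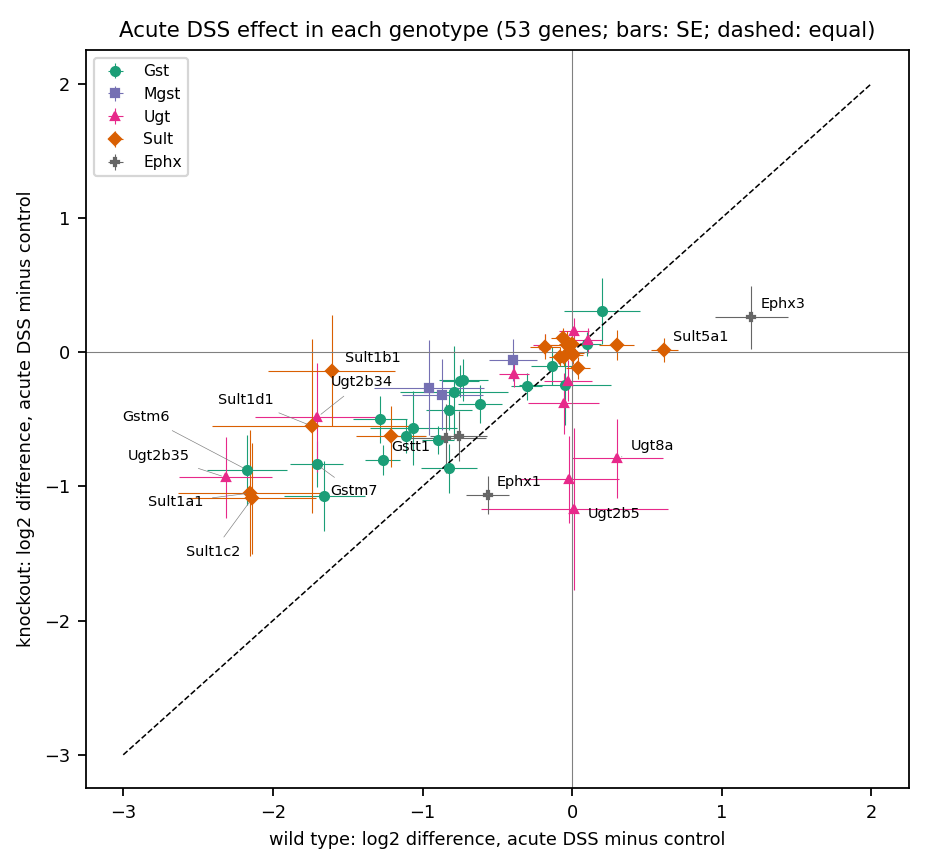
Acute DSS difference in log2 signal in wild type (horizontal axis) and knock-out (vertical axis) for each of the 53 genes, with SE bars, coloured by family, and a dashed line where both are equal. Genes such as Gstm6 at -2.17 and -0.88 and Ugt2b35 at -2.31 and -0.93 lie above the line, whereas Ephx1 at -0.57 and -1.06 lies below it.

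The difference between the DSS effects of the 2 genotypes, as an interaction term, passed for 6 genes in the acute phase, 5 positive and 1 negative, where 6.51 percent of all genes were positive and 5.75 percent negative. The DSS effect was less negative in knock-out than in wild-type colon for Ugt2b35 (1.38 ± 0.43), Gstm6 (1.29 ± 0.37), Gstm7 (0.87 ± 0.25), Gstt3 (0.78 ± 0.25) and Gstm5 (0.53 ± 0.17), with limma adjusted p from 0.0209 to 0.0409. Sult5a1, which rose in wild type, differed by 0.01 between DSS and control in knock-out colon, an interaction of -0.60 ± 0.13 (limma adjusted p = 0.0041). The interaction of Ephx1 did not pass (-0.50, limma adjusted p = 0.0998), and neither did that of Gstt1 (0.46, limma adjusted p = 0.0557) or Gstm2 (0.24, limma adjusted p = 0.3029). Without wild-type DSS replicates 1 and 3 only Sult5a1 passed. The count of 6 was 1 without knock-out control replicate 1 or wild-type control replicate 3 and 2 without knock-out control replicate 3. It was 3 without wild-type DSS replicate 1 or 3, without wild-type control replicate 2 or without knock-out DSS replicate 5, and 10 without wild-type DSS replicate 4 or 5 or without knock-out DSS replicate 6.

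In chronic colitis fewer of the enzymes were low. In wild-type colon 9 of the 53 genes fell and 1 rose, where 8.58 percent of all genes fell and 5.79 percent rose, and the median difference was -0.03. The 9 that fell (Ephx1, Gstm2, Gstm4, Gstm6, Gstm7, Gstt1, Gstt3, Sult1a1 and Ugt2b35) had all fallen in the acute phase. Ugt2b35 read 8.12, 8.42, 8.29, 8.46 and 8.43 in the chronic controls and 6.55, 7.18, 6.38, 6.42 and 7.15 with DSS, a 3.04-fold fall with no overlap (-1.60 ± 0.27, limma adjusted p = 1.10e-04). Gstt1 read 9.64, 9.67, 9.73, 9.45 and 9.61 in controls and 8.65, 8.98, 8.59, 8.78 and 8.77 with DSS (-0.87 ± 0.10, limma adjusted p = 1.02e-06). Here too the 2 groups were well apart.

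Sult1a1 read 10.90, 11.06, 10.80, 10.93 and 11.07 in the wild-type chronic controls and 9.0, 10.22, 8.27, 9.16 and 10.43 with DSS (-1.54 ± 0.42, limma adjusted p = 0.0122). All DSS arrays were below the controls, and without DSS replicate 3, the lowest, the difference was -1.25 and did not pass (limma adjusted p = 0.0576). Gstm7 was 9.68 to 9.99 in controls and 9.0 to 9.19 with DSS (-0.75 ± 0.15), and Ephx1 was 9.18 to 9.51 in controls and 8.58 to 9.13 with DSS (-0.49 ± 0.13). Epithelial markers averaged 12.53 to 12.65 in these controls and 12.56 to 12.77 with DSS, and mature colonocyte markers 12.04 to 12.81 and 11.26 to 12.22. The count of 10 fell to 6 without DSS replicate 3 or control replicate 2.

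Gstp1 was the 1 gene that rose in wild-type chronic colon, from 11.67, 11.75, 11.79, 11.80 and 11.67 to 12.19, 12.01, 11.90, 12.33 and 12.15 (0.38 ± 0.12, limma adjusted p = 0.0363). The groups did not overlap, but the call was lost without any 1 of 7 arrays (0.32 to 0.39), namely DSS replicates 1, 4 and 5 and control replicates 1, 2, 3 and 5. Gsta4 did not overlap either, at 9.13 to 9.78 in controls and 9.88 to 10.34 with DSS, and its difference of 0.72 did not pass (limma adjusted p = 0.0670). Members higher without overlap were these 2, where 6.23 percent of all genes were, and 14 members were lower without overlap, where 8.76 percent of all genes were.

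In knock-out chronic colon 3 of the 53 genes fell and 0 rose (limma, 13 at an unadjusted p under 0.05), where 7.94 percent of all genes passed, 5.47 percent lower and 2.47 percent higher. The share of the 53 genes that fell was thus near that of all genes. The 3 genes were Gstt1, Gstm2 and Gstm7, which fell in all 4 comparisons of DSS with control (the share of all genes is not given). Crypt base markers were lower without overlap in the same 4 comparisons by their mean signal, here at 9.25 to 9.41 in controls and 8.56 to 9.04 with DSS, with 2 of 5 lower, and their part in these 3 genes was not tested. Gstt1 read 9.32, 9.73, 9.50, 9.60 and 9.38 in the knock-out chronic controls and 8.91, 8.95, 8.73, 9.02 and 9.07 with DSS (-0.57 ± 0.10, limma adjusted p = 8.53e-04). Gstm2 read 10.31, 10.34, 10.26, 10.27 and 10.24 in controls and 9.98, 10.00, 9.56, 9.61 and 9.77 with DSS (-0.50 ± 0.09, limma adjusted p = 0.0014). DSS and control arrays were apart in both genes. Members lower without overlap were the same 3, a share near the 5.52 percent of all genes. Sult1b1 was higher without overlap (9.74 to 10.25 in controls, 10.31 to 10.70 with DSS), where 2.82 percent of all genes were. Gstm7 fell by 0.56 ± 0.15 (limma adjusted p = 0.0216), a call lost without DSS replicate 3 or 4. Ephx1 was 8.88 to 9.10 in controls and 8.64 to 9.37 with DSS, with overlap and a difference of 0.08.

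**Figure D4:**
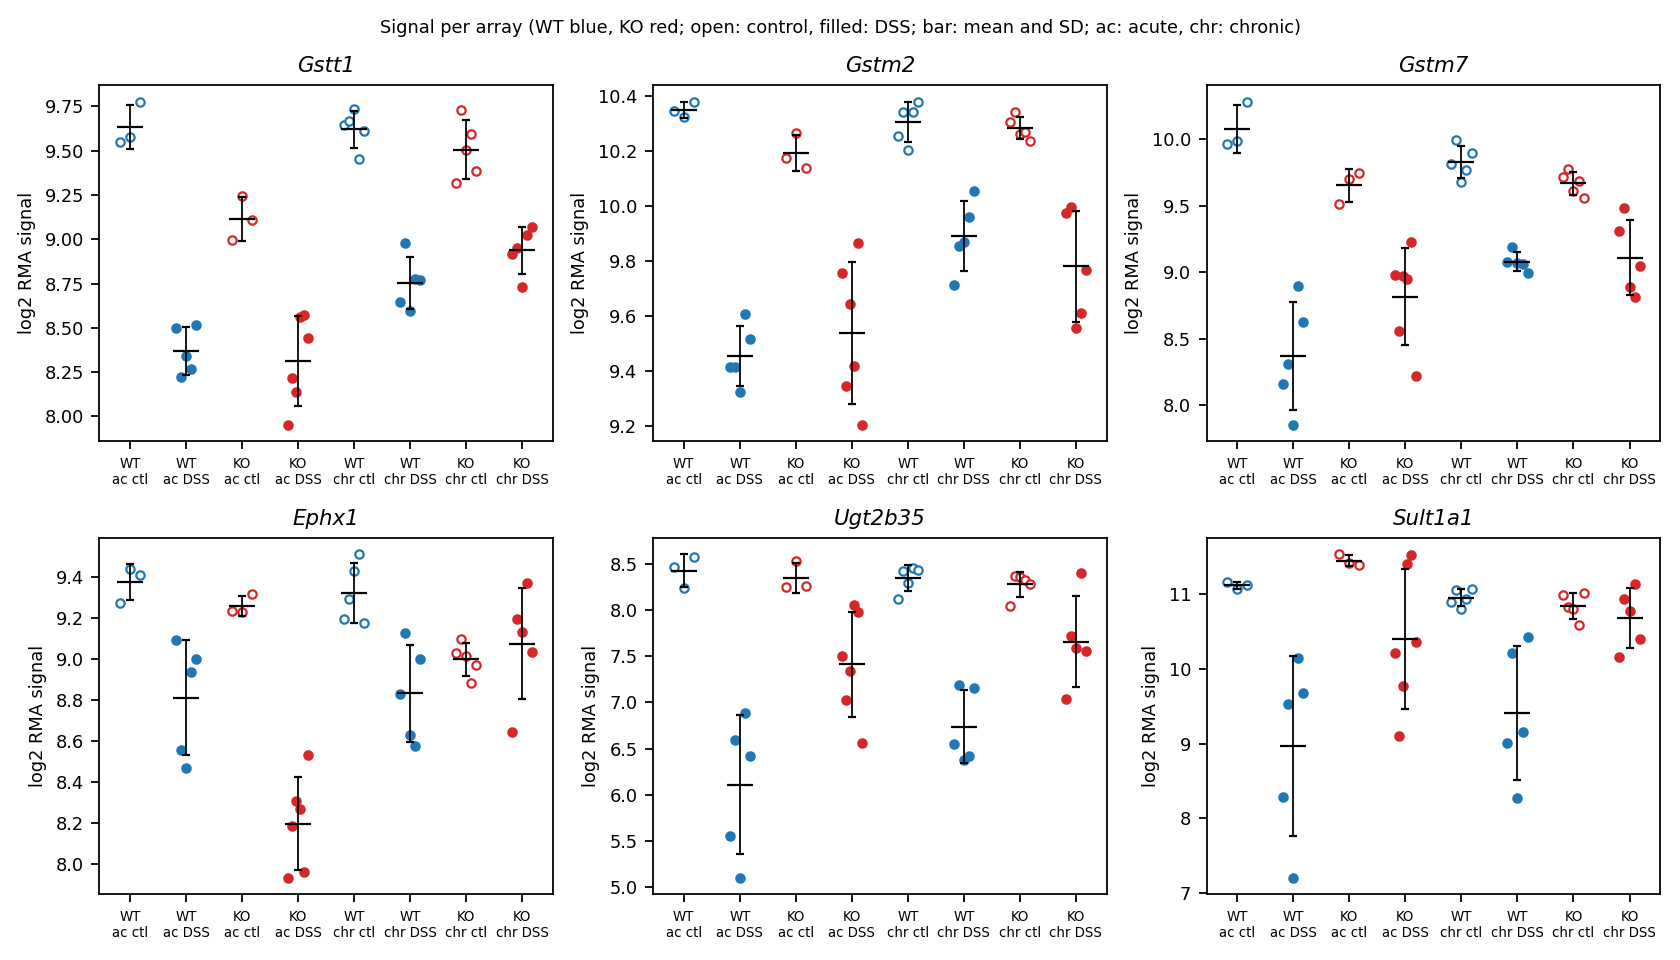
Log2 signal per array (vertical axes) of Gstt1, Gstm2, Gstm7, Ephx1, Ugt2b35 and Sult1a1 in the 8 groups (horizontal axes), blue for wild type and red for knock-out, open for controls and filled for DSS, with bars for mean and SD. Gstt1, Gstm2 and Gstm7 lie below their own controls in every DSS group, and Ephx1 is low in knock-out acute DSS (7.93 to 8.53) but not in knock-out chronic DSS (8.64 to 9.37).

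The acute and chronic DSS effects were compared within each genotype. Acute and chronic arrays belong to different series of animal numbers, so phase and series cannot be told apart here. In wild type 11 of the 53 genes differed, 10 of them with a higher value for the chronic than for the acute DSS effect, where the difference was positive for 9.30 percent of all genes and negative for 7.71 percent. These were Gstm3 (1.47 ± 0.36), Gstm6 (1.42), Gstk1 (1.39), Gstm7 (0.96), Gstt3 (0.80), Gstm4 (0.76), Gsto1 (0.75), Gstm5 (0.62), Gstz1 (0.57) and Gstm2 (0.48), all members of the Gst family, with limma adjusted p from 0.0059 to 0.0499. Sult5a1 was the 1 negative difference (-0.46). Without wild-type acute DSS replicates 1 and 3 the count was 6, without wild-type acute control replicate 3 it was 7, and without DSS replicate 4 or 5 it was 20 or 17. In knock-out colon Ephx1 alone passed (1.14 ± 0.19, limma adjusted p = 0.0200), where 0.0100 percent of all genes did, that is 2 of 19938, 0.00502 percent in each direction. That call was lost without knock-out chronic DSS replicate 2, 3 or 4, without knock-out chronic control replicate 4, without knock-out acute DSS replicate 1, without any 1 of the 3 knock-out acute controls, and without the 2 arrays with Y-linked signal (differences from 1.06 to 1.17).

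Between the genotypes without DSS, few enzymes differed. In the acute controls Ugt8a was higher and Gstt1 lower in knock-out colon, where 1.12 percent of all genes differed, 0.341 percent higher and 0.777 percent lower. Gstt1 was 9.0 to 9.24 in the 3 knock-out and 9.55 to 9.78 in the 3 wild-type controls (-0.52 ± 0.13, limma adjusted p = 0.0388), a call lost without any 1 of the 6 arrays. In the chronic controls 0 genes passed (limma, 3 at an unadjusted p under 0.05), where 0.100 percent of all genes did, 0.0702 percent higher and 0.0301 percent lower, and Ephx1 was the 1 member lower without overlap (1.10 percent of all genes were lower and 1.36 percent higher in that way). Under chronic DSS 0 genes passed either (limma, 4 at an unadjusted p under 0.05), where 2.48 percent of all genes did, 1.18 percent higher and 1.30 percent lower, with Sult1a1 at 1.26 (limma adjusted p = 0.0975) and Ugt2b35 at 0.92 (limma adjusted p = 0.0592). The interaction of genotype and chronic DSS passed for 0 genes (limma, 8 at an unadjusted p under 0.05), where 0.421 percent of all genes passed. Under chronic DSS Sult1b1 was the 1 gene higher in knock-out colon without overlap, at 10.31 to 10.70 against 9.57 to 10.15, where 1.26 percent of all genes were higher and 1.90 percent lower in that way. Each genotype is a series of animal numbers of its own here, and with the series as a covariate, which rests on the groups that span 2 series, the differences were 1.18 for Sult1a1, 0.75 for Ugt2b35 and 0.35 for Sult1b1, none of which passed. Without wild-type chronic DSS replicate 5 the count under chronic DSS was 2, and without knock-out chronic DSS replicate 1 both it and that of the interaction were 1.

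Ugt8a, which transfers galactose to ceramide, read 6.34, 6.17 and 6.17 in wild-type and 8.07, 8.02 and 7.16 in knock-out acute controls (1.52 ± 0.34, limma adjusted p = 0.0195). It passed neither without knock-out control replicate 1 or 2 or wild-type control replicate 2 or 3 nor with the series of animal numbers as a covariate (0.20, limma adjusted p = 0.8322). Ugt2b5, a glucuronosyltransferase, had a like profile, at 5.62, 5.92 and 5.71 against 8.31, 8.55 and 6.72, and its difference of 2.11 ± 0.70 did not pass (limma adjusted p = 0.1357). Within knock-out acute DSS, Ugt2b5 read 5.73, 5.62 and 5.29 in replicates 1 to 3 and 8.52, 7.64 and 7.35 in replicates 4 to 6, which follow the 2 series of animal numbers. In knock-out chronic DSS it read 5.87, 8.12, 7.84, 8.75 and 5.69. Ugt2b36 (1.39) and Ugt2b38 (0.80) were also higher without overlap in the knock-out acute controls and did not pass. In these controls 9 of the 53 genes were higher without overlap, where 10.8 percent of all genes were, and 7 lower, where 15.0 percent of all genes were.

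Some markers of small intestinal enterocytes also had higher signals in these arrays. The mean over Fabp6, Fabp2, Lct, Apoa4 and Sis was 7.25 to 7.51 in wild-type and 7.73 to 8.71 in knock-out acute controls. In knock-out acute DSS it was 7.57, 6.98 and 7.49 in replicates 1 to 3 and 8.60, 8.54 and 8.07 in replicates 4 to 6. Sis, the sucrase-isomaltase of the small intestinal brush border, was 5.24 to 5.37 in wild-type and 5.63 to 9.54 in knock-out acute controls, and Fabp2, a fatty acid binding protein, 10.02 to 11.27 and 11.77 to 12.61. The means of the other 3 differed little: 6.67 and 6.96 for Fabp6, 6.99 and 7.06 for Lct, and 7.41 and 7.55 for Apoa4. In the comparison of acute controls 0 of the 5 passed. The part of these markers in the Ugt2b5 and Ugt8a values was not tested.

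**Figure D5:**
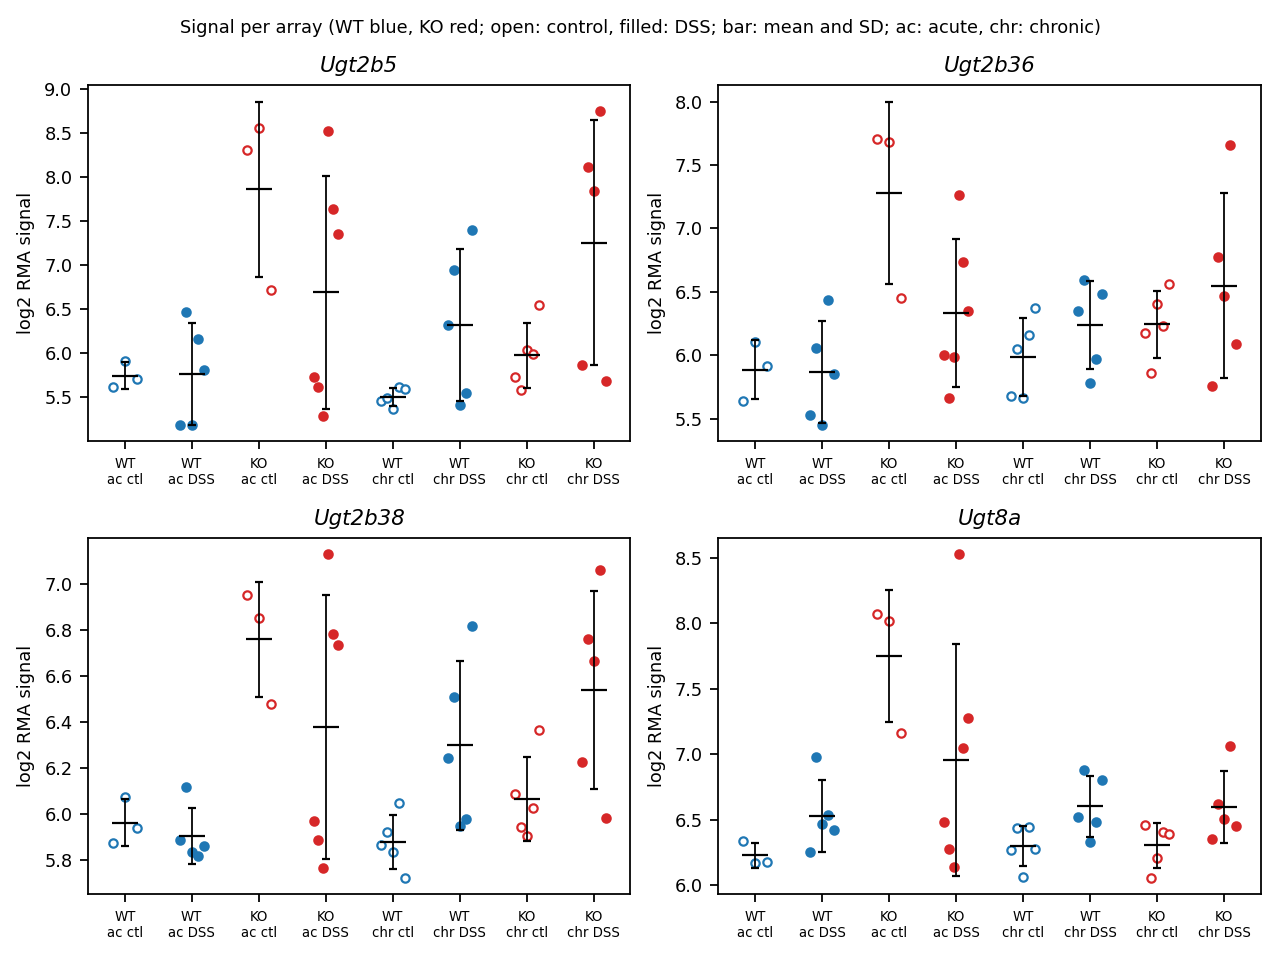
Log2 signal per array (vertical axes) of Ugt2b5, Ugt2b36, Ugt2b38 and Ugt8a in the 8 groups (horizontal axes), coloured by genotype, open for controls and filled for DSS, with bars for mean and SD. In knock-out acute DSS the Ugt2b5 arrays form a set at 5.29 to 5.73 and a set at 7.35 to 8.52.

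Genes that supply the cofactors and other genes of the pathway are given by the same counts, to be read against the 19.4 percent of all genes that rose and 21.8 percent that fell in wild-type acute colon, and the 5.79 and 8.58 percent in wild-type chronic colon. Of 12 genes for the supply, use or breakdown of glutathione, 3 rose in wild-type acute colon, a share near that of all genes, and 0 fell (limma, 5 at an unadjusted p under 0.05). Among those that rose were Slc7a11, the cystine importer (2.36 ± 0.49, limma adjusted p = 3.13e-04), and the glutathione peroxidase Gpx3 (1.80 ± 0.32). Counts over this list are thus not of supply alone. In wild-type chronic colon 4 rose and all 12 differences were positive, with Slc7a11 at 2.24 and Gclm, a subunit of the rate-limiting ligase of glutathione synthesis, at 0.59. Gclm alone rose in knock-out chronic colon (0.75). In knock-out acute colon 0 of 12 passed (limma, 5 at an unadjusted p under 0.05). Of 12 genes for sulfate transport and PAPS supply 8 fell in wild-type acute colon, including Slc26a3, an anion exchanger of the colonocyte surface (-2.02 ± 0.56), and Papss1, which makes PAPS (-1.36 ± 0.20, limma adjusted p = 3.42e-06). In the repeat without wild-type DSS replicates 1 and 3, 4 of these 12 fell. In the chronic phase 0 of the 12 passed in either genotype, with 3 and 1 at an unadjusted p under 0.05 (limma), and in knock-out acute colon 0 passed with 3 at that level.

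Of 20 NRF2 regulators and targets other than the 53 genes, 4 rose and 4 fell in wild-type acute colon, shares near those of all genes. Hmox1, heme oxygenase, rose by 2.01 ± 0.30, and the carbonyl reductase Cbr1 fell by 1.31 on the log2 scale. In wild-type chronic colon 8 rose and 0 fell, among them the quinone reductase Nqo1 (1.31, limma adjusted p = 0.0015) and Me1, malic enzyme (0.97). In knock-out chronic colon 3 of 20 rose, and in knock-out acute colon 0 passed (limma, 7 at an unadjusted p under 0.05). Of 13 xenobiotic-sensing transcription factors and relatives 4 fell and 1 rose in wild-type acute colon, with the vitamin D receptor Vdr at -1.63 and the pregnane X receptor Nr1i2 at -1.35. Both were higher in knock-out than in wild-type DSS colon with all arrays included (1.38 and 1.03). Of 9 conjugate exporters 3 rose and 3 fell in wild-type acute colon, with Abcb1a, a drug efflux pump, at -1.58 and Abcc3, which exports glucuronides, at -0.70. Without wild-type DSS replicates 1 and 3, 1 of the 9 exporters passed, which rose (median -0.03), and 3 of the 13 transcription factors fell and 1 rose. In the smaller lists 1 of 5 genes for UDP-glucuronic acid supply and its release rose, Gusb, and of 9 other conjugating enzymes 1 rose and 2 fell in that comparison.

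Across the 12 comparisons 33 of the 53 genes passed at least once and 20 in none. The share of all genes that passed at least once is not given, and 41.2 percent passed in wild-type acute DSS alone. The 20 were Gsta3, Gsta4, Gstp3, Gstt4, Ugt2a3, Ugt2b5, Ugt2b36, Ugt2b37, Ugt2b38, Ugt3a1, Ugt3a2, Sult1c1, Sult1e1, Sult2a3, Sult2a6, Sult2a8, Sult3a1, Sult3a2, Sult6b1 and Sult6b2. Other than Gsta3, Gsta4 and Gstp3, these genes were among the 23 members in the lowest 33.33 percent of all genes by mean signal.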

How the data were processed

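Colon RNA of 37 mice in 8 groups was measured, 1 array per mouse, so precision is limited by the 3 to 6 arrays per group. The authors deposited 1 log2 value per transcript cluster and array, made with RMA per the submitters' processing notes, which name no version. The base 2 was read from the range of 3.03 to 14.96, since it is not stated. Of 35511 clusters 21789 carried 1 symbol in the platform annotation, and the brightest per symbol gave 19938 genes. Groups are those of the sample titles. The test was limma 3.58.1 in R 4.3.3: 1 fit of 8 group means, 29 residual and 3.179 prior degrees of freedom, two-sided, 12 comparisons, Benjamini-Hochberg over all genes within each, threshold 0.05, with no filter on signal and the SE from the fit. The script was tested on simulated data. Named were at most 6 members with the largest positive and 6 with the largest negative difference among those past the threshold in each comparison, the 3 brightest of each family, the 3 largest wild-type acute differences of each pathway list, and Timp1. Other named genes were chosen after their values were seen. The 53 genes, the marker and pathway lists and the tests were chosen with earlier results of these data known. Alternatives were a trended robust prior, a filter on dim genes, all 1-symbol clusters, cyclic loess, the series of animal numbers or Y-linked signal as covariate, fits to fewer arrays, and leaving out arrays. Probe sequences were not used here, so reads shared between Gstm, Gsta, Gstp or Ugt2b copies were not separated.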

Additional observations from a re-analysis of the deposited data

Results flagged for a closer look

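Of 168 sets of 4 to 6 arrays over 28 members, 12 held an array whose gap to the nearest other array was large against the range of its group, and chance alone gives about 1 in 20. Of these 3 came from knock-out acute DSS replicate 6: Gstm6 at 6.74 (nearest 7.73), Gstt3 at 9.04 (nearest 9.64) and Sult4a1 at 7.88 (nearest 7.38). Gstp1 was lowest by a gap in wild-type acute DSS replicate 3 at 11.47, in knock-out acute DSS replicate 1 at 11.47 and in knock-out chronic DSS replicate 5 at 11.45. In the chronic controls Ephx2 stood at 8.41 in knock-out replicate 2, Ugt2b35 at 8.05 in knock-out replicate 1, Ephx4 at 7.2 in wild-type replicate 5 and Sult1c2 at 9.39 in wild-type replicate 1. Mgst1 was 9.27 in wild-type chronic DSS replicate 3, and Sult1b1 was 10.7 in knock-out chronic DSS replicate 2.

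The acute DSS effect differed between the genotypes (limma interaction, knock-out minus wild type) for Gstm5 by 0.53, Gstm6 by 1.29, Gstm7 by 0.87, Gstt3 by 0.78, Ugt2b35 by 1.38 and Sult5a1 by -0.60. The chronic and the acute effect differed in wild type (chronic minus acute) for Gstk1 by 1.39, Gstm2 by 0.48, Gstm3 by 1.47, Gstm4 by 0.76, Gstm5 by 0.62, Gstm6 by 1.42, Gstm7 by 0.96, Gsto1 by 0.75, Gstt3 by 0.80, Gstz1 by 0.57 and Sult5a1 by -0.46, and in knock-out for Ephx1 by 1.14.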

How the results depend on the processing

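The alternatives were followed for 50 calls, those with the largest differences in each comparison, at most 6 in each direction. None of these calls reversed its direction under any alternative. Of the 50 calls 20 held under every alternative run for them, and 30 were lost under at least 1. Other calls in the text, among them those of Gstt1 and Gstm2 in wild-type acute colon, are outside this tally. No paired analysis was possible because the titles number the animals without pairing them across groups. In fits to only the arrays of the groups compared, the count of the 53 genes past the threshold was 20 for wild-type acute DSS, 0 for knock-out acute DSS, 18 for wild-type chronic DSS, 5 for knock-out chronic DSS, 9 for knock-out against wild type in acute controls, 3 in acute DSS, 1 each for the interaction in the acute and the chronic phase, and 0 for chronic against acute in knock-out. Among arrays of 1 series of animal numbers it was 20 for wild-type acute DSS, 0 for knock-out acute DSS (limma, 16 at an unadjusted p under 0.05), 5 for knock-out chronic DSS and 2 for knock-out against wild type in acute DSS. With the series as covariate it was 3 for knock-out acute DSS, 1 for knock-out against wild type in acute controls and 2 for the acute interaction. With Y-linked signal as covariate it was 1 for the acute controls. Without the lowest 33.33 percent of genes by mean signal it was 1 for the acute controls and 1 for knock-out against wild type in chronic DSS, and with cyclic loess 1 for the latter. Alternatives chosen after seeing the data left out the 2 arrays with Y-linked signal (3 for knock-out acute DSS, 0 for chronic against acute in knock-out) or wild-type acute DSS replicates 1 and 3 (3 for knock-out against wild type in acute DSS, 1 for the acute interaction, 6 for chronic against acute in wild type). Shares of all genes that passed are not given for the fits of this section, so its counts cannot be read against them. The same holds for the earlier counts with arrays left out or with a covariate. The exception is wild-type acute DSS against control without replicates 1 and 3.

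Leaving out 1 array at a time, the counts ranged from 25 to 32 for wild-type acute DSS, 3 to 10 for knock-out acute DSS, 6 to 10 for wild-type chronic DSS and 2 to 4 for knock-out chronic DSS. For knock-out against wild type they ranged from 0 to 2 in acute controls, 7 to 20 in acute DSS, 0 to 0 in chronic controls and 0 to 2 in chronic DSS. The acute interaction ranged from 1 to 10 and the chronic one from 0 to 1, and chronic against acute from 7 to 20 in wild type and 0 to 2 in knock-out. Dim genes near background, 3 to 6 arrays per group and shared probes of close gene copies limit all of these values.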

Other observations

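Clusters shared by several gene symbols, which the naming rule left out, were added in a fit over 23410 clusters chosen after seeing the data. In wild-type colon the 4 clusters of the alpha class genes Gsta1 and Gsta2 and their near copies moved opposite to the mu class. All 4 carry the same gene symbols, so they are not separate observations. They rose there by 0.67 to 0.95 with acute DSS (limma adjusted p from 0.0396 to 0.0416) and by 0.99 to 1.36 with chronic DSS (limma adjusted p from 0.0029 to 0.0049). Of all 23410 clusters 9330 passed with acute and 3325 with chronic DSS in wild type, in either direction. One of the 4 Gsta clusters averaged 8.21 ± 0.22 (SD, n = 5) in chronic controls and 9.58 ± 0.41 (SD, n = 5) with chronic DSS, with no overlap between 7.99 to 8.52 and 9.07 to 10.13. In acute DSS it was spread from 7.98 to 10.64 around a control mean of 8.74. In knock-out colon the 4 clusters differed by 0.04 to 0.16 with acute and 0.48 to 0.79 with chronic DSS and did not pass.

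The cluster shared by 8 Ugt1a genes passed in none of the 12 comparisons, at -0.31 with acute DSS in wild type and 0.51 with chronic DSS in knock-out colon (limma adjusted p = 0.4490 and 0.2461). The 2 clusters shared by Gstp1 and Gstp2 fell in wild-type acute colon by 0.57 and 0.56 on the log2 scale (limma adjusted p = 0.0034 and 0.0042), whereas the cluster of Gstp1 alone did not pass. The second cluster of Gstm3 gave -2.15 ± 0.36 there, beside -1.66 for the brighter one.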
